A study of Mus musculus with 2 samples.

Results

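The Mir181 family of the mouse was followed in microRNA (miRNA) sequencing of embryonic forebrain. Its 6 genes, Mir181a-1, Mir181a-2, Mir181b-1, Mir181b-2, Mir181c and Mir181d, were taken by their Ensembl gene identifiers from 1973 genes counted, and form 3 genomic clusters of neighbouring gene pairs. The samples were forebrain of B6NCrl embryos at day 16.5 of gestation, pooled from males and females and labelled healthy. There were 2 libraries of small RNA in the size range below 30, labelled biological replicates 1 and 2 with a separate biosample record each. The pool of replicate 2 came from 41 embryos; for the other pool the labels name no number. Both libraries belong to 1 group with no other age, tissue, genotype or treatment, so no comparison between conditions was possible and the levels below describe this single stage.

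A miRNA is cut from a hairpin precursor into a mature form from its 5p or its 3p arm, and the mature form guides silencing proteins to messenger RNAs that pair with its seed, here bases 2 to 8. The mature forms of the Mir181 family are known from brain neurons and from developing lymphocytes. In mouse thymocytes miR-181a raises the sensitivity of T cells to antigen by repressing phosphatases, and in rat neurons it represses a glutamate receptor subunit.

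The family makes 12 annotated mature forms with 10 distinct sequences, all of which had an entry in RefSeq (GRCm38.p6). The 5p forms are shown first because they carry the family seed and because copies in different clusters give the same sequence. Capitals mark the seed.
mmu-miR-181a-5p: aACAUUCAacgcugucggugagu
mmu-miR-181b-5p: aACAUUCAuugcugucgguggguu
mmu-miR-181c-5p: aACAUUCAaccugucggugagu
mmu-miR-181d-5p: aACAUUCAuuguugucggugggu
All 6 genes give a 5p form with the seed ACAUUCA, and no mature form of any other gene in the RefSeq table has it. Mir181a-1 and Mir181a-2 give 1 identical 5p form, as do Mir181b-1 and Mir181b-2. Counted from the 5′ end, miR-181b-5p and miR-181d-5p differ by C12U over 23 bases. The form of Mir181c has 22 bases and lacks the G at position 11 of the 23 bases of miR-181a-5p.

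The 3p forms are shown because they tell the copies apart.
mmu-miR-181a-1-3p: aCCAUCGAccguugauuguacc
mmu-miR-181a-2-3p: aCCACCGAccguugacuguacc
mmu-miR-181b-1-3p: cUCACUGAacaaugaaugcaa
mmu-miR-181b-2-3p: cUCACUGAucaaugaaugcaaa
mmu-miR-181c-3p: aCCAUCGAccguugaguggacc
mmu-miR-181d-3p: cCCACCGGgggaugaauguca
The 6 sequences have 4 seeds. Mir181a-1 and Mir181c share CCAUCGA, and Mir181b-1 and Mir181b-2 share UCACUGA. The 3p forms of Mir181a-1 and Mir181a-2 differ by U5C and U16C, the first of which lies in the seed. Those of Mir181b-1 and Mir181b-2 differ by A9U over 21 bases, and those of Mir181a-1 and Mir181c by U16G and U19G.

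In the deposited tables, multimapping reads stand in a row of their own, so a gene's count was read as its uniquely placed reads. A count of Mir181c or Mir181d can hold reads from both arms, since none of their 22-base windows occurs in another transcript of GENCODE M21. In the other genes the 5p form itself is repeated. Mir181a-1 and Mir181a-2 share a run of 28 bases that covers the whole 5p form, and 7 of 66 and 7 of 55 windows of 22 bases lie in it. Mir181b-1 and Mir181b-2 share a run of 26 bases, with 5 of 59 and 5 of 68 windows. No window that starts within 2 bases of a 3p form was shared. The hairpins of these 4 genes are shown with the shared run in capitals, by the GRCm38 sequence of the strand that carries the gene.
Mir181a-1: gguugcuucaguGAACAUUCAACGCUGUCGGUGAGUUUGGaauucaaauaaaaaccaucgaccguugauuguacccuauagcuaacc
Mir181a-2: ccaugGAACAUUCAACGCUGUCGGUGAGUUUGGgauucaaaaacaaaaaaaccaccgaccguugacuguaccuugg
Mir181b-1: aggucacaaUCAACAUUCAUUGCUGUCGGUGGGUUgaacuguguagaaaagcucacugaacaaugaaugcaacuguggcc
Mir181b-2: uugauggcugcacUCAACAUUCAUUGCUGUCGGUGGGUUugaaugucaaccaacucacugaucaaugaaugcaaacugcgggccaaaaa
The run of the Mir181a pair goes on for 4 bases past the 5p form. The run of the Mir181b pair ends with the 5p form, where the next base is g in Mir181b-1 and u in Mir181b-2. The tables do not give the arm or the length of a read, so the share of each arm in a count was not tested.

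**Figure D1:**
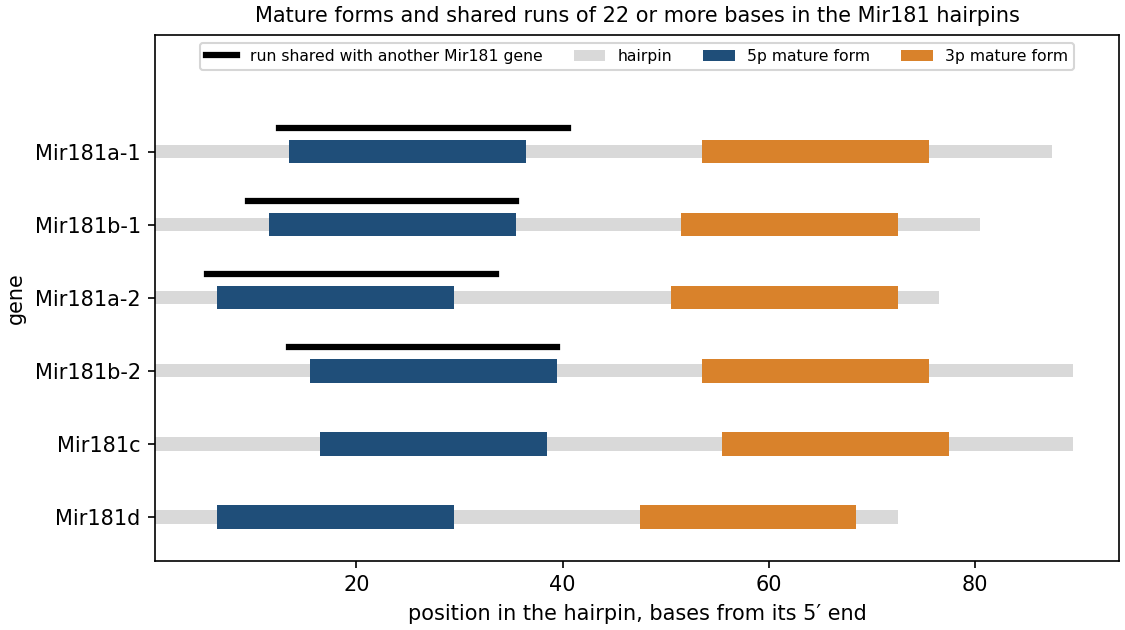
Position of the mature forms in the 6 Mir181 hairpins, in bases from the 5′ end of each hairpin on the x axis, with 1 row per gene. Blue blocks are 5p forms, orange blocks are 3p forms and black lines are runs of 22 or more bases shared with another Mir181 gene; the lines cover the 5p forms of Mir181a-1, Mir181a-2, Mir181b-1 and Mir181b-2, and Mir181c and Mir181d have none.

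By position on mm10, the assembly named in the deposited file descriptions, the clusters lie on chromosomes 1, 2 and 8. Mir181a-1 (ENSMUSG00000065565.1, chr1:137966455-137966541, plus strand) and Mir181b-1 (ENSMUSG00000065458.1, chr1:137966639-137966718, plus strand) are 97 bases apart, in an intron of the non-coding gene Gm4258. The long non-coding RNA A430106G13Rik starts inside Mir181a-1 on the same strand, and an exon of it contains Mir181b-1. The long non-coding RNA Gm26936 spans both genes on the opposite strand, with no exon over either. Mir181a-2 (ENSMUSG00000065423.1, chr2:38852735-38852810, plus strand) and Mir181b-2 (ENSMUSG00000065578.1, chr2:38853830-38853918, plus strand) are 1019 bases apart, opposite to an intron of Nr6a1, which encodes a nuclear receptor. An exon of the gene Gm44144, also on the opposite strand, contains Mir181b-2. Mir181c (ENSMUSG00000065483.1, chr8:84178873-84178961, minus strand) and Mir181d (ENSMUSG00000076338.1, chr8:84178716-84178787, minus strand) are 85 bases apart, in an intron of Nanos3 on the same strand, a gene of germ cell development. The identifier of Mir181c carries version 1 in the tables and version 2 in GENCODE M21, from which these positions come, so the interval in which its reads were counted may differ from the one given here.

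Together the 6 genes held 163072 of 5060112 gene-strand counts in replicate 1 and 125872 of 4158686 in replicate 2. That is 3.22% in replicate 1 and 3.03% in replicate 2, or 3.12% ± 0.139 (SD, n = 2). The exact Clopper-Pearson 95% intervals were 3.21% to 3.24% in replicate 1 and 3.01% to 3.04% in replicate 2, and like all intervals here they cover counting error only. Multimapping reads, 40.5% of the reads in replicate 1 and 43.3% in replicate 2, are outside this share. They can hold reads of miR-181a-5p and miR-181b-5p, whose amount was not tested.

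Levels of the genes are given in CPM, counts per 1000000 gene-strand counts of a library. Mir181c had the most uniquely placed reads of the family, with 75714 counts in replicate 1 and 59104 in replicate 2, or 14963 and 14212 CPM. It was the 15th gene of the whole table by mean level and held 46.7% ± 0.372 of the family's counts. Windows at the 5p forms of Mir181c and Mir181d are not shared, while most or all of those of the other genes are. The order given here is therefore one of uniquely placed reads and not of the mature forms made. Mir181a-1 stood at 6981 CPM in replicate 1 and 6927 CPM in replicate 2, from 35325 and 28806 counts. Mir181d, the neighbour of Mir181c, stood at 7144 CPM in replicate 1 and 6470 CPM in replicate 2, from 36150 and 26908 counts. The values of Mir181a-1 lie between those of Mir181d, so the order of these genes, the 30th and 31st of the table, is not set by the data. Mir181b-2 had 15162 and 10514 counts, or 2996 CPM in replicate 1 and 2528 CPM in replicate 2, and ranked 60th.

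The remaining copies were far lower. Mir181a-2 had 599 counts in replicate 1 and 446 in replicate 2, which is 118 and 107 CPM. Mir181b-1 had 122 and 94 counts, which is 24.1 CPM in replicate 1, with an exact interval of 20.02 to 28.8 CPM, and 22.6 CPM in replicate 2, with one of 18.3 to 27.7 CPM. Between the highest and the lowest member the family thus spanned from the 15th to the 276th place among 703 genes with a count in either library. All 6 genes passed a minimum of 5 counts per library, as did 438 genes of the table. On the opposite strand each of the 6 genes had 0 reads in both libraries, which allows up to 0.593 CPM in replicate 1 and 0.721 CPM in replicate 2 for uniquely placed reads.

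In the order Mir181c, Mir181a-1, Mir181d, Mir181b-2, Mir181a-2 and Mir181b-1 by mean CPM, every neighbouring pair except Mir181a-1 and Mir181d was apart in the sense that the values of one gene lay wholly above those of the next. No test was made of this order, since 2 values against 2 cannot give a two-sided exact permutation p below 0.333. CPM counts whole reads, and the annotated mature forms are 21 to 24 bases long. Per base of the annotated gene, Mir181c stayed highest with a mean of 163.9 CPM per base, Mir181d followed with 94.5 and Mir181a-1 with 79.9, so the order of Mir181a-1 and Mir181d turned round, while the other 4 genes kept their places.

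**Figure D2:**
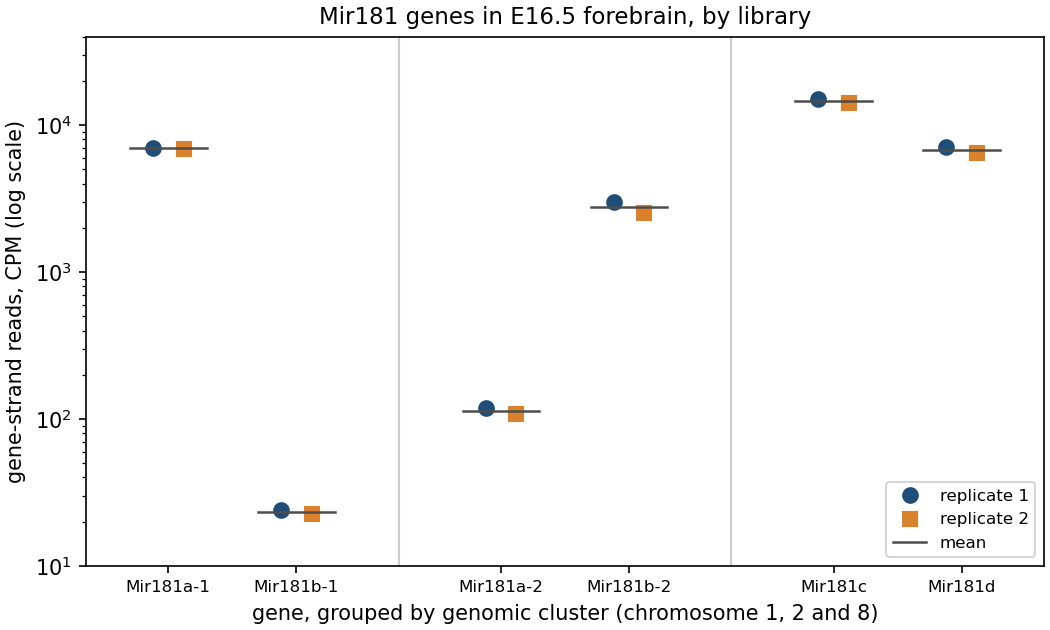
Level of each Mir181 gene in CPM (log scale, y axis), with genes grouped by genomic cluster on the x axis. Circles are replicate 1, squares replicate 2 and bars their mean; on chromosome 1 Mir181a-1 at 6981 and 6927 CPM stands far above Mir181b-1 at 24.1 and 22.6 CPM, while on chromosome 2 Mir181b-2 at 2996 and 2528 CPM stands above Mir181a-2 at 118 and 107 CPM.

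The clusters differed in which neighbour held the uniquely placed reads. Multimapping reads of miR-181a-5p and miR-181b-5p are not in the counts of the clusters on chromosomes 1 and 2. The levels and shares below therefore do not rank how much each cluster or gene makes. The chromosome 8 cluster had the most uniquely placed reads, at 22107 CPM in replicate 1 and 20683 CPM in replicate 2. It held 68.5% ± 0.187 of the family's counts. Mir181c took 67.7% of that cluster in replicate 1, with an exact interval of 67.4% to 67.96%, and 68.7% in replicate 2, with one of 68.4% to 69.03%. The intervals do not overlap, so the ratio of Mir181c to Mir181d, 2.09 in replicate 1 and 2.20 in replicate 2, differed between the libraries by more than counting error, though by little in size. This ratio does not depend on how the libraries are scaled.

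In uniquely placed reads the chromosome 1 cluster stood at 7005 CPM in replicate 1 and 6949 CPM in replicate 2. Almost all of them came from Mir181a-1. This gene took 99.66% of the cluster in replicate 1 and 99.67% in replicate 2, and exceeded Mir181b-1 by a factor of 298 ± 11.9 (SD, n = 2). The chromosome 2 cluster stood at 3115 CPM in replicate 1 and 2635 CPM in replicate 2, and there the Mir181b copy led. Mir181a-2 took 3.80% of it in replicate 1, with an exact interval of 3.51% to 4.11%, and 4.07% in replicate 2, with one of 3.71% to 4.46%, which overlap. Mir181b-2 exceeded Mir181a-2 by a factor of 24.4 ± 1.23.

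Set beside its copy on the other chromosome, Mir181a-1 had 59.0 times the uniquely placed reads of Mir181a-2 in replicate 1 and 64.6 times in replicate 2. Mir181b-2 had 124 times those of Mir181b-1 in replicate 1 and 112 times in replicate 2. These reads lie outside the shared run at least in part, as shown in the hairpins above, and for that reason the factors do not give the ratio of the miR-181a-5p or miR-181b-5p made by each copy.

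In 7 other brain families, each gene used also has a mature form that occurs in another gene of the table. Among these families, the highest copy exceeded the lowest by a mean factor between 1.02 for Mir125b and 206 for Mir9. The factors of Mir181a, 61.8 ± 3.97, and Mir181b, 118 ± 8.79, lay below that of Mir9 and above the 6 others, of which Mir103 at 10.5 was the highest. The factor of Mir9 was 169 in replicate 1 and 242 in replicate 2, and rests on 22 and 12 counts of Mir9-2. Low counts also limit the factors of Mir103, with 22 and 18 counts of Mir103-1, and Mir26a, with 33 and 25 counts of Mir26a-1. In the Mir9 family both mature forms of Mir9-2 and Mir9-3 also occur in another gene of the table, while in each Mir181a and Mir181b gene the 5p form alone does. No row for Mir9-1 was used here. The Mir124a genes matched no mature entry by symbol, so their mature forms were not compared and they are not among the 7. The Mir124a copies share between 20 and 26 windows each with another gene, and the highest exceeded the lowest 4.17 times in replicate 1 and 3.75 times in replicate 2, factors that rest on 6 and 4 counts of Mir124a-3. These factors are a description over 2 libraries, with no test.

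**Figure D3:**
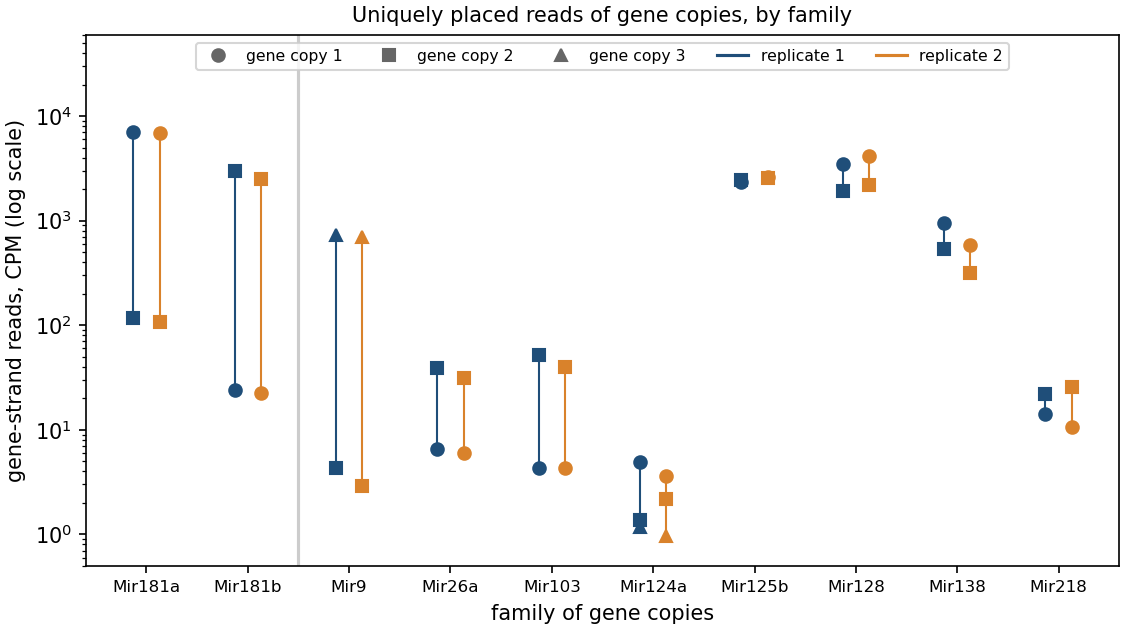
Uniquely placed reads in CPM (log scale, y axis) of gene copies, by family on the x axis. Each line joins the copies in 1 library (blue for replicate 1, orange for replicate 2), and circles, squares and triangles are copies 1, 2 and 3; the lines of Mir181a, Mir181b and Mir9 are the longest, and those of Mir125b the shortest.

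Gene by gene, the count in replicate 1 was set against that in replicate 2 by an exact binomial test (two-sided), which describes these libraries and not a condition. The test counts each read as an independent draw and leaves out the spread between pools. Of 466 genes tested, 45.7% were called at a Benjamini-Hochberg adjusted p under 0.05, 23.6% higher in replicate 1 and 22.1% lower. Of the 6 Mir181 genes, 3 were called, 1 of them higher and 2 lower, a share near that of all genes. Mir181b-2 was higher in replicate 1, at a log2 ratio of 0.13 and an exact binomial adjusted p of 3.01e-11. Mir181a-1 was lower, at -0.11 with an exact binomial adjusted p of 1.95e-20, and Mir181c lower, at -0.045 with 3.75e-08 by the same exact test. Mir181d at 0.023, Mir181a-2 at 0.022 and Mir181b-1 at -0.028 were not called, and for Mir181b-1 the 95% interval of the log2 ratio, -0.43 to 0.38, leaves room for a larger difference than was seen in the called genes. With unscaled library totals in place of the trimmed mean of M values, all 6 log2 ratios were positive, and Mir181b-2, Mir181c and Mir181d were called higher in replicate 1, while Mir181a-1 at 0.011 was no longer called. The directions for Mir181a-1 and Mir181c thus rest on the scaling, and that for Mir181b-2 was the same under both.

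The called differences were small. The median size of the log2 ratio was 0.037 over the 6 genes, beside 0.26 over the 273 genes with at least 100 counts in replicate 1 and in replicate 2. The largest of the family was that of Mir181b-2. Of these 273 genes, 191 had a log2 ratio at least as large in size, a number that includes Mir181b-2 itself. These sizes also rest on the scaling. With unscaled library totals the log2 ratios of the family ran from 0.011 for Mir181a-1 to 0.245 for Mir181b-2. A difference that no scaling can change is the ratio of Mir181a-1 to Mir181b-2, which was 2.33 in replicate 1 and 2.74 in replicate 2.

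**Figure D4:**
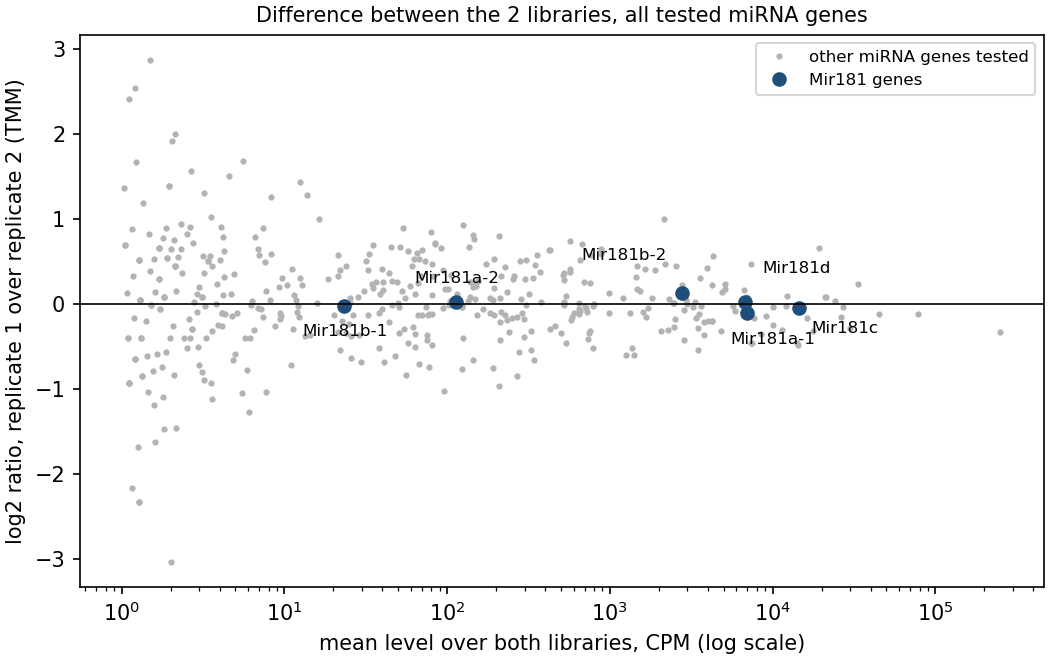
Log2 ratio of replicate 1 over replicate 2 (y axis) against the mean level in CPM (log scale, x axis) for the 466 genes tested, with Mir181 genes in blue and all others in grey. With scaled library totals, as drawn, the Mir181 genes lie between -0.11 and 0.13, near the zero line, at levels from 23.4 to 14588 CPM.

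In the list of all genes by mean CPM, the genes next to each member show what lay at a like level in these libraries. Mir181c stood between Mir93 at 15041 ± 272 CPM and Mirlet7b at 14314 ± 2521 CPM (SD, n = 2), and Mir181c itself at 14588 ± 531 CPM did not lie apart from either. Mir30d, at 6992 ± 705 CPM, was directly above Mir181a-1, and Mir135b, at 6708 ± 938 CPM, directly below Mir181d. Mir181b-2 at 2762 ± 331 CPM lay between Mir381 at 2765 ± 466 CPM and Mir541 at 2560 ± 699 CPM, both of the imprinted Dlk1-Dio3 region. Mir181a-2 at 113 ± 7.87 CPM lay between Mir30b at 116 ± 13.6 CPM and Mir301b at 106 ± 23.98 CPM. Mir181b-1 at 23.4 ± 1.07 CPM lay between Mir218-2 at 23.9 ± 2.54 CPM and Mir3061 at 22.5 ± 0.812 CPM. With 2 libraries no likeness of pattern could be computed.

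Since the family is known from lymphocytes as well as neurons, marker miRNAs of other cells were read in the same libraries. The neural list had 9 of 10 genes with a row, 8 of them past the same minimum in each library, and summed to 23314 CPM in replicate 1 and 22637 CPM in replicate 2, led by Mir137 at 12348 ± 1260 CPM. Its lowest genes were Mir9-2 at 3.62 ± 1.03 CPM and the copies of Mir124a, with means between 1.07 CPM for Mir124a-3 and 4.27 CPM for Mir124a-1, all of which share windows with another gene, so that their multimapping reads are not in these levels. The lymphoid and myeloid list had 5 of 6 genes with a row, 4 of them past the same minimum in each library, and summed to 258 CPM in replicate 1 and 327 CPM in replicate 2. Lymphocyte-enriched Mir150 was at 50.4 ± 2.24 CPM, and myeloid Mir223 at 124 ± 38.6 CPM. Mir142b was at 0 on its gene strand in both libraries but its opposite strand held 926 reads in replicate 1 and 941 in replicate 2, more than any other gene of that list. No row for Mir142 was used here. With reads of both strands, the list summed to 441 CPM in replicate 1 and 553 CPM in replicate 2. The 3 erythroid genes summed to 306 CPM in replicate 1 and 240 CPM in replicate 2, and endothelial Mir126a was at 16611 CPM in replicate 1 and 18999 CPM in replicate 2. The Mir181 family summed to 32227 CPM in replicate 1 and 30267 CPM in replicate 2. The lists differ in their number of genes, so these sums are not ranked. Mir126a alone, at a mean of 17805 CPM, lay above Mir181c, the highest Mir181 gene, at 14588 CPM. The part of each cell type in the Mir181 counts was not tested, and fewer cells of a type cannot be told apart from less RNA per cell in such bulk samples.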

How the data were processed

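The deposited tables give raw counts of reads per gene, unstranded and by strand. Another 4 rows sum unassigned reads and were left out of totals and tests. Per the deposited file descriptions the authors placed reads on mm10 with GENCODE M4. Aligner, counter and trimming: not given in the sources used here. Gene-strand counts were used, 5060112 in replicate 1 and 4158686 in replicate 2, and a count of 0 was taken to allow up to 3 counts. The rows of unassigned reads held 40.5% multimapping, 19.1% unmapped and 2.50% uniquely mapped but unlisted reads in replicate 1, and 43.3%, 15.2% and 2.82% in replicate 2.

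Symbols, positions and hairpins came from GENCODE M21, which is on GRCm38 (mm10), matched by gene identifier without version for 1894 genes, and mature forms from RefSeq GRCm38.p6. All 6 Mir181 genes matched a mature entry and 5 a hairpin entry, identical to GENCODE. Windows of 22 bases were searched on both strands among the genes of the table and all M21 transcripts of genes that do not overlap the miRNA gene. A genome sequence was not used here, so sharing with unannotated sequence is not covered.

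Genes with 10 or more counts over both libraries entered an exact binomial test (SciPy 1.17.1), with library totals scaled by TMM (edgeR 4.0.16, R 4.3.3) and Benjamini-Hochberg adjustment. With 1 group, the quasi-likelihood fit of edgeR could not be made. The code was tested on simulated data. Log2 ratios add 0.5 to each count. Alternatives were unscaled totals, DESeq2 1.42.0 size factors, no count minimum, the unstranded column, other denominators, gene length, each library alone and windows of 18, 20 and 24 bases. Named genes are the 6 members, genes of the same seed, the genes next above and below each member by mean CPM, and the listed families and markers. Members and lists were chosen with earlier results of these data known. Labels give separate biosample records for the pools, and SDs rest on 2 libraries.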

Additional observations from a re-analysis of the deposited data

Results flagged for a closer look

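The tables hold reads outside the gene-strand counts used above. Multimapping reads numbered 5506866 in replicate 1 and 4752799 in replicate 2. The rule for a closer look was a total above 3 counts, which whole-library totals of this size pass whatever the family holds. These reads were set apart because no gene receives them in these tables, while miR-181a-5p and miR-181b-5p each occur at 2 of the 6 Mir181 genes. How many of these reads belong to the family was not tested.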

How the results depend on the processing

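With all reads of a table as denominator the family held 1.17%, and Mir181a-1, Mir181b-1, Mir181a-2, Mir181b-2, Mir181c and Mir181d stood at 2612, 8.77, 42.3, 1037, 5478 and 2555 per 1000000 reads, since the denominator is larger. With unstranded counts the denominator is also larger, and every member stood lower, since none had opposite-strand reads. Mir181a-1 moved to 6828 CPM, by more than its small SD of 38.4 CPM. Mir181c moved to 14324 CPM, by less than its SD of 531 CPM. Per annotated gene length, the log2 ratio of Mir181a-1 over Mir181d was -0.24 in place of 0.033, and Mir181a-1, Mir181a-2 and Mir181c took 99.64%, 4.58% and 63.4% of their clusters. With windows of 18 bases, 40 windows of the family were shared in place of 24, by construction, and in the same 4 genes. Each library alone gave a family share of 3.03% or 3.22%. The count of Mir181 genes called stayed at 3 under the 5 alternatives of the test, but the direction of uncalled or small differences did not hold throughout. With unscaled totals the log2 ratios of Mir181a-1, Mir181b-1 and Mir181c turned to 0.011, 0.091 and 0.074, and Mir181d became called. TMM moved every log2 ratio by -0.12 relative to unscaled totals, under which 155 of 222 calls were higher in replicate 1. With TMM computed on the tested genes, an alternative chosen after seeing the data, Mir181a-2 and Mir181d turned to -0.0020 and -0.0011, both uncalled. Each change of scaling moves all log2 ratios by an amount of its own that is common to all genes, so these turns are arithmetic and not a separate result. No paired analysis was possible because both libraries belong to 1 group. Leaving out a library leaves no second one to test. Depth limits Mir181b-1 most, with 94 counts in replicate 2.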
